A study of Mus musculus with 4 samples.

Results

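The genes described here encode the phagocyte NADPH oxidase, NADPH oxidase 2, and its close partners. They are Cybb, Cyba, Ncf1, Ncf4, Rac2 and Hvcn1, 6 of the 32285 genes in the matrices, matched by symbol. The source was single-nucleus RNA-seq of cerebral cortex from 4 Gclc-KO mice, 2 aged 3 months and 2 aged 6 months, with a library for each mouse. In every mouse a floxed Gclc allele was crossed with CaMKII-Cre, a driver active in forebrain excitatory neurons, so the deletion is neuronal and the microglia carry no intended deletion. Nuclei were sorted as DAPI-positive singlets from cortical regions rich in rod-shaped microglia, and no wild-type library was analysed here. Age was therefore the only contrast between mice, and it cannot be told apart from anything else that differed between the young and the older animals. The sample titles number the libraries of each age as replicates 1 and 2 and name no batch.

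NADPH oxidase 2 is the main superoxide source of phagocytes, microglia included. At rest the membrane pair of gp91phox (Cybb, the catalytic subunit that carries electrons from NADPH to oxygen) and p22phox (Cyba, its stabilising partner) is separate from the cytosolic proteins p47phox (Ncf1, the organiser) and p40phox (Ncf4, which binds phosphoinositides of the phagosome). Phosphorylation of p47phox and loading of the small GTPase Rac with GTP bring the parts together, and the voltage-gated proton channel Hv1 (Hvcn1) carries out the protons that would otherwise stop the electron flow. Glutathione, whose first synthetic step needs the catalytic subunit encoded by Gclc, is a main defence of neurons against the peroxide that follows from superoxide.

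The members lie at separate places of the mouse genome (GENCODE genes, GRCm38, the build named mm10 in the labels). Cybb is on the minus strand of chromosome X, chrX:9435252-9487771, Cyba on the minus strand of chr8:122424776-122432930 and Ncf1 on the minus strand of chr5:134220053-134229625. Hvcn1 is on the plus strand of chr5:122206804-122242297, and Ncf4 (chr15:78244801-78262580, plus strand) and Rac2 (chr15:78559167-78572783, minus strand) are neighbours 296.6 kb apart. Opposite-strand genes overlap 3 of them: Gm20388 spans Cyba, Gtf2ird2 overlaps Ncf1 and Tctn1 overlaps Hvcn1, so a read set to the wrong strand could pass between these pairs, whereas Cybb, Ncf4 and Rac2 overlap no other gene.

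The promoters of 3 of the 6 members were held in the RefSeq table (GRCm38.p6), each as 300 bases with 250 before and 50 after an annotated start, and they are shown because all 6 genes shared the microglial pattern described below. The Cybb window is chrX:9469275-9469574, a start inside the full gene span, the Cyba window chr8:122432891-122433190 and the Ncf1 window chr5:134229576-134229875, all on the minus strand and printed 5′ to 3′ on the gene's strand. Capitals mark the core GAGGAA bound by PU.1 (Spi1), the myeloid master regulator, searched on both strands (TTCCTC on the other).
Cybb: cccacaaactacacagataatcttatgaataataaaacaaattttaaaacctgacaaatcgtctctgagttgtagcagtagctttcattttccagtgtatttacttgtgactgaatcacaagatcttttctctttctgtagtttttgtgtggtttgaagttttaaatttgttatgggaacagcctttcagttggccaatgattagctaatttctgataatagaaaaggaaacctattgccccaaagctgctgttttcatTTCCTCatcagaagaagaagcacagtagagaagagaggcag
Cyba: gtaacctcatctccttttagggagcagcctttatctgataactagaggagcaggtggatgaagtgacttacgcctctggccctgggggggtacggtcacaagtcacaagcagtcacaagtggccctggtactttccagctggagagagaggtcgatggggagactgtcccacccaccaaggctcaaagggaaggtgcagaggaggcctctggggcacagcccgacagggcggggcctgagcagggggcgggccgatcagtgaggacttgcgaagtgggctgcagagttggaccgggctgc
Ncf1: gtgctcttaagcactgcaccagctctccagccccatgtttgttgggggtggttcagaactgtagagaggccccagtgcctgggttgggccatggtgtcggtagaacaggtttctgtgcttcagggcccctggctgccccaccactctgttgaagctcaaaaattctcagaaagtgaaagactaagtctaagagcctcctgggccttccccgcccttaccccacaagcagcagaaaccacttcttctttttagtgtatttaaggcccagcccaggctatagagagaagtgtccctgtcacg
The Cybb window held 1 match, 9 bases after the start, while the Cyba and Ncf1 windows held none. Among 32851 promoter windows of this length 28.3% held at least 1 match. The windows also differed in base composition, with 35.3% G and C in Cybb, 60.7% in Cyba and 54.0% in Ncf1, against a median of 52.7%.

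Nuclei were typed by marker genes, and a nucleus with the markers of 2 types was set aside. Of 30784 barcodes, 30515 passed the study's limits on detected genes and mitochondrial reads, and 2126 of these were microglia-like, 463 and 388 at 3 months and 712 and 563 at 6 months. All 15 microglial markers were present in them, but the gate was made of these markers. Macrophage and T cell markers were gate lists too, so nuclei rich in them were not counted as microglia-like. The 8 neutrophil markers summed to 15 UMIs with 4 of them at 0 in every library, the 8 macrophage markers to 84, the 5 monocyte markers to 51 and the 10 T cell markers to 40. The 7 B cell markers summed to 351 UMIs, 338 of them from Ighm, and the defining Ms4a1 was at 0. The libraries held 59262228 to 65894316 UMIs in kept nuclei, and the microglia-like nuclei 677579 to 1459421. Levels below are UMIs of a gene per 1000000 UMIs of the summed nuclei (CPM), which are 3′ tags and are compared between nuclei, not between genes. In such sums fewer nuclei with a gene and less of that gene per nucleus cannot be told apart. The libraries shared 12 to 19 cell barcodes in pairs.

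All 6 members were microglial genes in this cortex. Each was higher in microglia than in excitatory neurons, inhibitory neurons, oligodendrocytes, oligodendrocyte precursors (OPCs) and astrocytes, with an adjusted p under 0.05 in all 30 comparisons (edgeR's quasi-likelihood test with the library as a block, Benjamini-Hochberg adjustment over all genes). Of the 14596 genes tested, 36.9% were higher in microglia than in excitatory neurons, 35.2% than in inhibitory neurons, 28.8% than in oligodendrocytes, 27.1% than in OPCs and 21.6% than in astrocytes. The median log2 difference of the members between microglia and excitatory neurons was 7.42, where that of all genes was 0.01.

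The membrane pair showed this first. Cybb had 129 UMIs in microglia, 16.2 and 13.3 CPM in the 3-month libraries and 37.0 and 39.6 CPM in the 6-month libraries. In excitatory neurons, with 124737075 UMIs, it had 48, a mean of 0.389 ± 0.140 CPM (SD, n = 4). The ratio of pooled levels was 75.8 (95% interval of the counts 54.0 to 108), and the fitted log2 difference 5.44 ± 0.32 (SE, adjusted p = 1.64e-15). Inhibitory neurons came next to microglia in Cybb, at 0.905 ± 0.462 CPM (SD, n = 4), 31.8-fold lower by pooled levels, and their range overlapped that of excitatory neurons and oligodendrocytes. OPCs, astrocytes and vascular cells held no Cybb UMI in any library. With 3 UMIs set as the limit of a count of 0, the pooled microglial level was 25.5-fold, 6.93-fold and 1.26-fold over that limit. The lower ends of the 95% intervals of the counts were lower, at 20.4-fold, 5.56-fold and 1.01-fold. Cyba, at 52.5 and 87.1 CPM in microglia at 3 months and 85.7 and 73.6 CPM at 6 months, was 251.7-fold higher than in excitatory neurons (log2 difference 7.33 ± 0.28 SE, adjusted p = 3.03e-24). Its second highest level was in vascular cells, where 6 UMIs in 76 nuclei gave a mean of 44.0 ± 52.3 CPM (SD, n = 4) that overlapped the microglial libraries.

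The cytosolic subunits Ncf1 and Ncf4 had no UMI in OPCs, astrocytes or vascular cells. Ncf1 was at 225.4 and 187.4 CPM in microglia at 3 months and 229.5 and 243.4 CPM at 6 months, against 0.750 ± 0.154 CPM (SD, n = 4) in excitatory neurons, a log2 difference of 7.63 ± 0.19 (SE, adjusted p = 4.83e-25). Its 999 microglial UMIs stood beside 95 in excitatory neurons, 19 in inhibitory neurons and 6 in oligodendrocytes. Gtf2ird2, which overlaps Ncf1 on the other strand, had 418 UMIs in microglia, 3.30-fold over OPCs and 5.18-fold over astrocytes by pooled levels. Ncf4 was at 21.0 and 45.8 CPM in microglia at 3 months and 27.4 and 23.4 CPM at 6 months, and its log2 difference from excitatory neurons was 7.51 ± 0.41 (SE, adjusted p = 2.04e-16). The microglial libraries of both genes lay above every library of every other type.

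The GTPase and the channel followed the subunits. Rac2, the haematopoietic Rac, was at 17.2 and 19.2 CPM in microglia at 3 months and 9.59 and 13.7 CPM at 6 months. Only 2 UMIs were found in excitatory neurons and 5 in inhibitory neurons, and none in the other 4 types, with log2 differences of 8.19 ± 0.49 and 5.39 ± 0.50 (SE, adjusted p = 1.36e-14 and 2.19e-10). Hvcn1 was at 52.5 and 36.9 CPM in microglia at 3 months and 48.6 and 61.4 CPM at 6 months, a log2 difference of 6.44 ± 0.25 over excitatory neurons (SE, adjusted p = 3.27e-21). Against the vascular cells, of which there were 76 nuclei and 130008 UMIs, 4 members were called higher (Cybb, Ncf1, Ncf4 and Hvcn1), with 16.2% of all genes called higher, and Cyba and Rac2 were not (adjusted p = 0.139 and 0.123). DESeq2 kept only Ncf1 and Hvcn1 of these 4, with adjusted p = 0.153 for Cybb and 0.151 for Ncf4. Ncf4 was also no longer called when any library was left out (adjusted p = 0.0957 to 0.156), nor was Cybb without either 6-month library (adjusted p = 0.102 and 0.179).

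**Figure D1:**
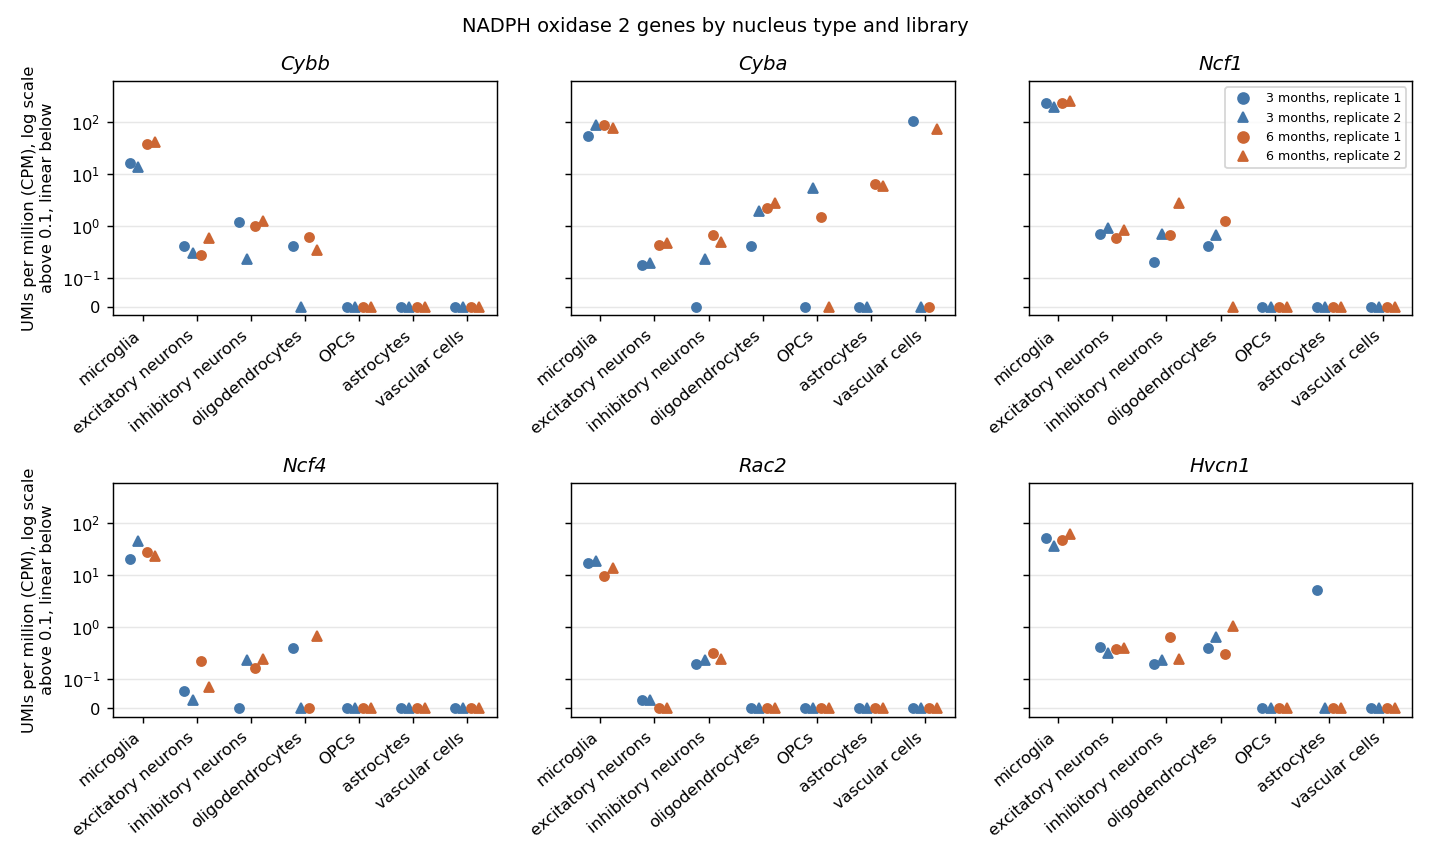
CPM (y axis, logarithmic above 0.1 and linear below) of the 6 members in 7 nucleus types (x axis), with a point for each library, blue at 3 months and orange at 6 months. All microglial points lie between 9.59 and 243.4 CPM, while Cybb, Ncf1, Ncf4 and Rac2 sit at 0 in OPCs, astrocytes and vascular cells.

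The few UMIs in neurons were set against the microglial markers found in the same nuclei. Microglia were gated by these markers and neurons with many of them were set aside, so the ratios are not on equal terms. Per 1000 UMIs of the 15 microglial markers, Ncf1 had 18.9 UMIs in microglia, 6.72 in excitatory neurons and 7.22 in inhibitory neurons. Cybb ran the other way, with 2.44 in microglia, 3.40 in excitatory neurons and 6.84 in inhibitory neurons. In excitatory neurons the other 4 members were lower than in microglia, as Ncf1 was, with 2.62 against 6.25 for Cyba, 0.778 against 2.31 for Ncf4, 0.142 against 1.17 for Rac2 and 3.33 against 4.30 for Hvcn1, on 2 to 47 UMIs. In inhibitory neurons Cyba (2.66), Ncf4 (1.14) and Hvcn1 (2.66) were lower too, and Rac2 was at 1.90 from 5 UMIs. These ratios rest on 18 and 19 UMIs of Cybb and Ncf1 in inhibitory neurons. The part of RNA set free from microglia in these ratios was not tested.

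Beside the members, Rac1, the broadly expressed Rac, and Cybc1, the chaperone of the membrane pair, were 1.65 ± 0.11 and 1.37 ± 0.25 higher on the log2 scale in microglia than in excitatory neurons (SE, adjusted p = 7.70e-17 and 5.04e-06). Nox4, a homologue that makes hydrogen peroxide without cytosolic subunits, was not microglial. Its 3 UMIs in microglia and 84 in excitatory neurons gave much the same pooled level, 0.679 and 0.673 CPM. Higher levels were found in OPCs, at 7.08 ± 4.23 CPM, and in vascular cells, at 12.9 ± 25.8 CPM from 1 UMI (SD, n = 4).

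The genes that use or make glutathione were not set apart in the same way. Gclc, the targeted gene, was at 36.3 ± 4.22 CPM (SD, n = 4) in excitatory neurons, 42.5 ± 4.01 CPM in inhibitory neurons and 62.9 ± 10.0 CPM in microglia. By pooled levels Gclc was 1.68-fold higher in microglia than in excitatory neurons (interval of the counts 1.48 to 1.90). The fitted log2 difference of microglia from excitatory neurons was smaller, 0.26 ± 0.13 (SE), and missed the threshold (edgeR, adjusted p = 0.0636). The fit rescales the summed counts (TMM), which CPM and pooled ratios do not. The part of this scaling in the results for Gclc, Slc3a2 and Gclm was not tested. Without a wild-type library, and with 3′ tags that were not tied to the deleted part, the Gclc UMIs do not check the knockout. Of 8 genes of glutathione supply, 1 was higher in microglia than in excitatory neurons (Slc3a2, a subunit of the cystine importer, log2 difference 0.29 ± 0.12 SE, adjusted p = 0.0353) and 3 were lower (Ggt7, Gss, the second enzyme of synthesis, and Gclm, the modifier subunit, at -2.78 ± 0.16, -1.91 ± 0.27 and -0.43 ± 0.18 SE). These 4 were named after their values were seen. The call of Slc3a2 was kept in 4 of 9 alternatives and lost without either 6-month library (adjusted p = 0.471 without replicate 1 and 0.0822 without replicate 2). That of Gclm was kept in 6 of 9 and lost without replicate 1 of 3 months or of 6 months (adjusted p = 0.159 and 0.0617). Of 14 genes that remove superoxide and peroxide, 8 were higher and 2 lower in microglia than in excitatory neurons, with a median log2 difference of 0.53. Over all 14596 genes tested in this comparison 5389 were higher and 5311 lower. Neither list was tested against these shares.

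In single nuclei the members differed in how often they were seen. A UMI of at least 1 member was found in 1136 of 2126 microglia (53.4%), and of 2 or more members in 294 (13.8%), while no nucleus held all 6. Ncf1 was found in 723 nuclei, Cyba in 289, Hvcn1 in 211, Ncf4 in 112, Cybb in 89 and Rac2 in 60. Cybb UMIs came from many nuclei, 63 with 1 UMI and 26 with 2 or more, the highest with 5. Of the 89 nuclei with Cybb, 26 also held Ncf1, 17 Cyba and 3 Ncf4, and none held Rac2. After each nucleus was thinned to 1000 UMIs, which left out 165 microglia, Cybb was found in 51 of 1961 microglia and 4 of 11340 excitatory neurons, and Ncf1 in 396 and 10. Before thinning, at median depths of 1470 to 2201 UMIs in microglia and 7765 to 11734 in excitatory neurons, the mean share with a Cybb UMI was 3.82% and 0.423%.

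Across the 28 sums of type and library, the genes closest to each member (Pearson's r of log2(CPM + 1) over 18891 genes with at least 100 UMIs) were named by rank. They were Tnfsf8, C3ar1 and Ulbp1 for Cybb (r = 0.990, 0.985 and 0.981), Pik3ap1, Slco2b1 and Dpp8 for Cyba (r = 0.909, 0.903 and 0.900), and Fes, Nlrp1b and Arhgap45 for Ncf1 (r = 0.995, 0.993 and 0.992). For Ncf4 they were Gm15523, C5ar2 and Arl11 (r = 0.995, 0.993 and 0.993), for Rac2 Ecscr, Tmem273 and Sash3 (r = 0.997, 0.996 and 0.995), and for Hvcn1 Plaur, BC035044 and Slamf6 (r = 0.993, 0.990 and 0.988). The sums share libraries and 4 of the 28 are microglia, so these values describe mostly the step between microglia and the rest.

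Within microglia, Cybb was higher in nuclei that carried markers of disease-associated microglia (DAM), the lipid-handling state described around plaques and dying neurons. A nucleus was called DAM-marked when UMIs of at least 2 of the 14 measured markers were present, and no member is a marker. Among the markers were Lpl, Itgax, Cst7, Spp1 and Axl, with 220, 124, 84, 39 and 293 UMIs in microglia. Those with the most UMIs were Lilrb4a (946), Csf1 (452), Igf1 (403) and Ccl4 (348). By this rule 434 of 2126 microglia were DAM-marked, 93 and 45 at 3 months and 166 and 130 at 6 months. DAM-marked nuclei were deeper, with median depths of 2016.5 to 2709 UMIs per library against 1362 to 2118.5 in the others. The rule counts distinct markers, and its part in this depth difference was not tested.

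Cybb UMIs in DAM-marked nuclei numbered 15 and 7 at 3 months and 32 and 37 at 6 months, which gave 59.1, 66.8, 76.2 and 106.0 CPM. In the other microglia they numbered 2, 2, 22 and 12, which gave 2.52, 3.49, 21.2 and 13.5 CPM. No DAM-marked library overlapped the others, and 70.5% of the Cybb UMIs of microglia were in DAM-marked nuclei. The log2 difference was 2.76 ± 0.34 (SE, edgeR with the library as a block, adjusted p = 4.88e-06), and it lay between 2.35 and 3.46 with an adjusted p of at most 0.00342 under the 12 alternatives. Of the 9414 genes tested, markers of the state left out, 7.16% were called, 4.09% higher and 3.07% lower, and of the 6 members 1 was higher (Cybb) and 1 lower (Ncf1). The members' median log2 difference was 0.20 and that of all genes 0.00. Macrophage markers summed to 31.9 CPM in DAM-marked nuclei (0 to 40.5 by library, 3 of 8 markers at 0) and 14.6 CPM in the others (8.73 to 18.9, 2 of 8 at 0), and monocyte markers to 12.4 and 11.2 CPM (2.87 to 27.6 and 5.24 to 16.35 by library, 1 of 5 at 0 in each). Their part in the Cybb difference was not tested.

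Ncf1, the organiser that Cybb's partner p22phox binds, was lower in DAM-marked nuclei. It was at 114.2 and 114.6 CPM there at 3 months and 181.0 and 220.7 CPM at 6 months, and at 261.1, 200.8, 249.1 and 252.3 CPM in the other microglia of the same libraries. The value was lower in 4 of 4 libraries, although the groups overlapped, and the log2 difference was -0.59 ± 0.16 (SE, edgeR, adjusted p = 0.0180). The direction held in all 12 alternatives, but the call was lost in 5 of them: DESeq2 (adjusted p = 0.163), without the library block (0.182), 3 markers in place of 2 (0.0887), a gate by the share of marker UMIs (0.229) and without replicate 1 of 3 months (log2 difference -0.41, adjusted p = 0.210). Gtf2ird2 on the opposite strand was at 61.0 ± 13.8 CPM in DAM-marked and 105.1 ± 4.83 CPM in the other microglia (SD, n = 4), and its part in the Ncf1 value was not tested.

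The other 4 members did not pass the test between DAM-marked and other microglia. Cyba differed by 0.11 ± 0.20, Ncf4 by 0.29 ± 0.33, Rac2 by -0.46 ± 0.50 and Hvcn1 by 0.36 ± 0.23 on the log2 scale (SE, edgeR, adjusted p = 0.859, 0.744, 0.732 and 0.471). Rac2 was found in DAM-marked nuclei with 12 UMIs in all, so a change in it was hardly detectable at this depth.

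**Figure D2:**
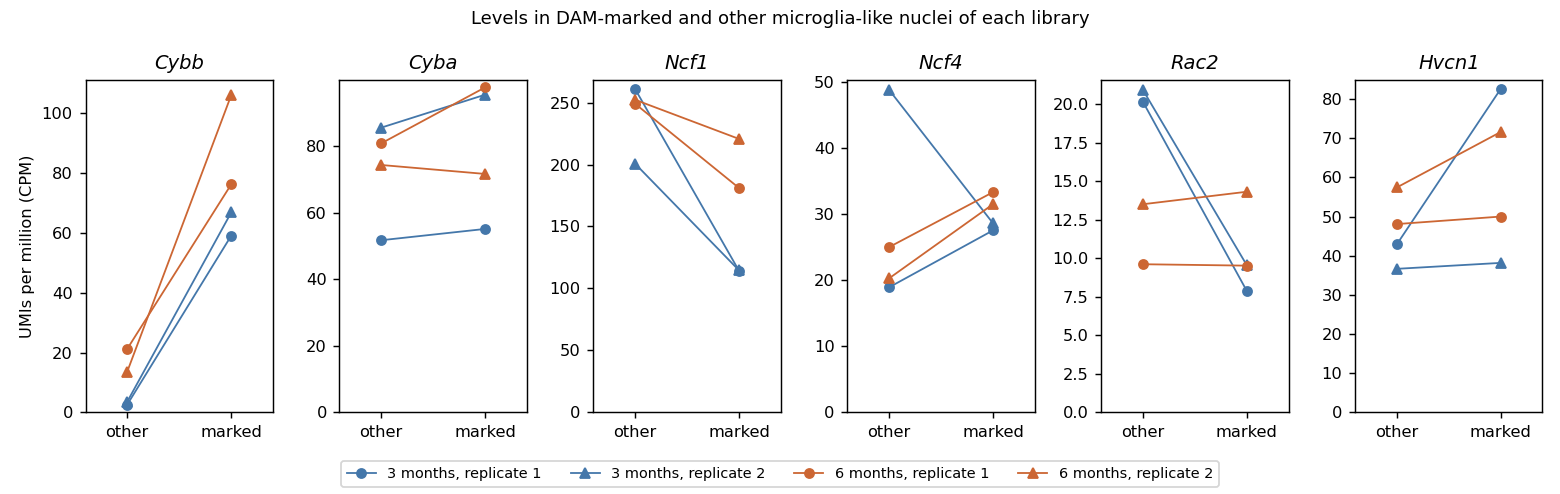
CPM (y axis, from 0 in every panel) of the 6 members in other and in DAM-marked microglia-like nuclei, with a line for each library, circles for replicate 1 and triangles for replicate 2. Every Cybb line climbs, from 2.52 to 21.2 CPM up to 59.1 to 106.0 CPM, and every Ncf1 line falls.

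Genes upstream of the oxidase were also compared between DAM-marked and other microglia. Of 22 receptors and kinases, 21 were tested, with 1 higher, 4 lower and 16 not called, and a median log2 difference of -0.17. Over all 9414 genes tested 4.09% were called higher and 3.07% lower. Tlr2, a receptor for bacterial lipoproteins, was 1.57 ± 0.29 higher on the log2 scale (SE, edgeR, adjusted p = 6.10e-04). Prkca, a protein kinase C, was lower by -0.99 ± 0.14 (adjusted p = 3.62e-05), Itgam, the complement receptor chain CD11b, by -0.71 ± 0.15 (adjusted p = 0.00209), Pik3cg, a phosphoinositide kinase of leucocytes, by -0.75 ± 0.21 (adjusted p = 0.0235) and Fcgr3, an activating antibody receptor named after its value was seen, by -0.58 ± 0.17 (adjusted p = 0.0380). The Prkca call was kept in 11 of 12 alternatives, as were those of Tlr2 and Itgam, which ended without the library block (adjusted p = 0.0876 and 0.130). The Pik3cg call was kept in 7 of 12 alternatives and that of Fcgr3 in 6, with an adjusted p of up to 0.164 and 0.357. Among the alternatives, the Pik3cg call was lost without replicate 1 or 2 of 3 months or replicate 2 of 6 months (adjusted p = 0.0754, 0.0692 and 0.130). That of Fcgr3 was lost without the same libraries (adjusted p = 0.221, 0.0744 and 0.153). Of 8 listed myeloid transcription factors, 1 was higher, 1 lower and 6 not called, with a median log2 difference of 0.07. Among them Ikzf1 was lower (-0.33 ± 0.10, adjusted p = 0.0446) and Spi1 was not called (-0.31, adjusted p = 0.185). The Ikzf1 call was kept in 7 of 12 alternatives, with an adjusted p of up to 0.469. It was lost, among others, without replicate 1 of 3 months or either library of 6 months (adjusted p = 0.244, 0.0934 and 0.259). None of 9 Rac exchange factors and inhibitors was called. Of 11 genes tested that remove superoxide and peroxide, Txnrd1, cytosolic thioredoxin reductase, was higher (1.22 ± 0.26, adjusted p = 0.00271, and 0.0678 by DESeq2), and none of 5 genes of glutathione supply was called.

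Cybb was also higher in microglia marked as interferon-responsive (IRM), those with UMIs of at least 2 interferon-induced markers such as Ifit3, Rsad2 and Irf7. There were 156 such nuclei, 26, 27, 72 and 31 by library. They were deeper in each library, with median depths of 2394.5, 1867, 1916.5 and 2043 UMIs against 2191, 1420, 1673.5 and 1999.5 in the others. This rule also counts distinct markers, and its part in the depth difference was not tested. Cybb UMIs in IRM-marked nuclei numbered 10 and 4 at 3 months and 14 and 6 at 6 months. These gave 169.4, 71.0, 82.8 and 75.4 CPM, against 7.09, 8.05, 31.0 and 37.2 CPM in the other microglia. The groups did not overlap, and the log2 difference was 2.15 ± 0.47 (SE, edgeR, adjusted p = 0.00404). The call was lost without replicate 1 of 3 months, which held 10 of the 34 UMIs (log2 difference 1.53, adjusted p = 0.145), and without the library block (adjusted p = 0.0846). Of 8643 genes tested 1.99% were called, 1.64% higher, and Cybb was the 1 member called of the 5 tested. Oligodendrocyte markers summed to 211.5 CPM in IRM-marked nuclei (152.4 to 263.8 by library, 0 of 10 at 0) and 129.7 CPM in the others (83.0 to 153.8, 0 of 10 at 0), and macrophage markers to 13.7 and 19.5 CPM (0 to 17.8 and 8.05 to 23.3 by library, with 4 and 1 of 8 at 0). Their part in the difference was not tested.

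The 2 marked states overlapped in 63 nuclei. Cybb was at 125.2 CPM in these, at 72.5 CPM in the 371 that were DAM-marked only, at 63.7 CPM in the 93 that were IRM-marked only (12 UMIs) and at 8.37 CPM in the 1599 with neither, as values pooled over libraries. Among the other members, Ncf4 differed by 0.73 ± 0.49, Ncf1 by 0.03 ± 0.23, Cyba by -0.05 ± 0.36 and Hvcn1 by -0.71 ± 0.49 on the log2 scale between IRM-marked and other microglia (SE, edgeR, adjusted p = 0.773, 0.994, 0.994 and 0.788), and Rac2, with 5 UMIs in the marked nuclei, did not pass the filter on low counts. By DESeq2, run without that filter, Rac2 differed by -0.10 ± 0.98 (SE, adjusted p = 1.00). Among the listed partners that were higher in IRM-marked nuclei were Irf1 (1.38 ± 0.39, adjusted p = 0.0488) and Tiam1, a Rac exchange factor (1.08 ± 0.25, adjusted p = 0.00979), and both were named after their values were seen. By list, 2 of 8 transcription factors and 1 of 9 Rac regulators tested were higher. Of 21 receptors and kinases, 10 peroxide-removing genes and 5 glutathione genes tested, 0 were called. The Irf1 call was kept in 5 of 12 alternatives and that of Tiam1 in 8. The call of Irf1 was lost without replicate 1 of either age (adjusted p = 0.524 at 3 months and 0.466 at 6 months), as was that of Tiam1 (adjusted p = 0.0836 and 0.111).

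**Figure D3:**
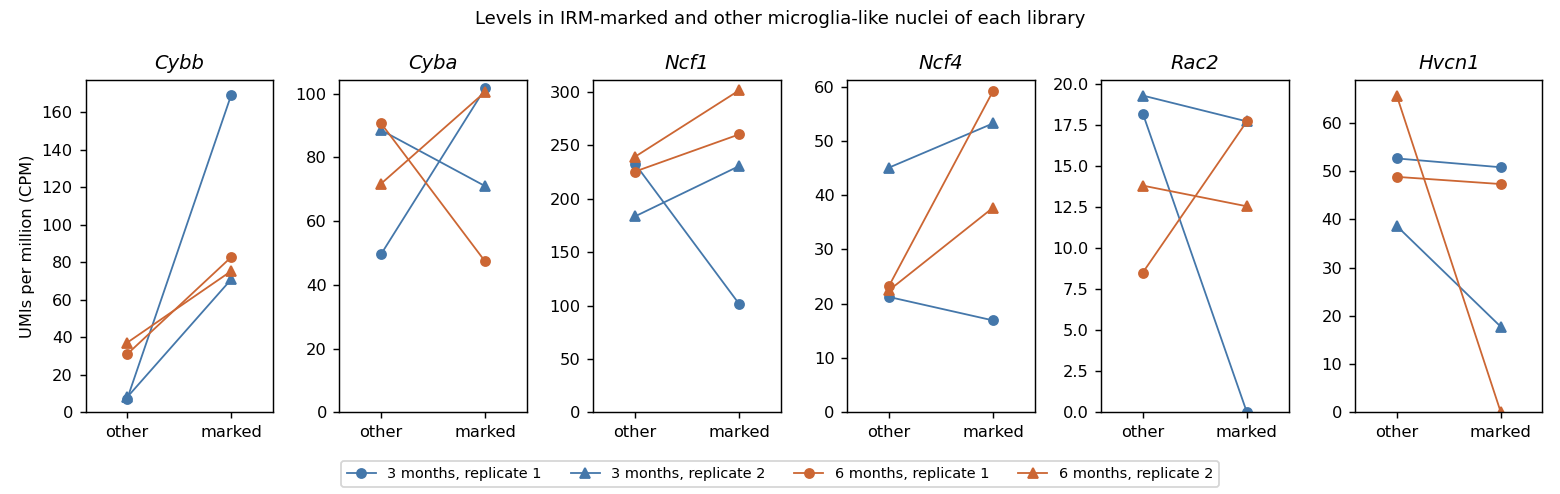
CPM (y axis, from 0 in every panel) of the 6 members in other and in IRM-marked microglia-like nuclei, with a line for each library, circles for replicate 1 and triangles for replicate 2. Cybb is at 71.0 to 169.4 CPM in the marked nuclei and 7.09 to 37.2 CPM in the others, every Hvcn1 line falls without passing the test, and the lines of the other genes run both ways.

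With age, Cybb was the member that moved most in microglia, without passing the test over all genes. It went from 14.8 ± 2.09 CPM at 3 months to 38.3 ± 1.85 CPM at 6 months (SD, n = 2), a ratio of 2.60. The ratio was 2.28 between the libraries numbered replicate 1 and 2.98 between those numbered replicate 2. The log2 difference was 1.33 ± 0.33 (SE), with an unadjusted p of 0.00296 and an adjusted p of 0.489 from edgeR. By DESeq2 the adjusted p was 1.00, and by edgeR with the replicate number as a block it was 0.692. The adjusted p over the 14 alternatives ran from 0.0528, without replicate 2 of 3 months, to 1.00. Over 11575 genes tested 0.0173% were called, 2 genes, and 0 of the 6 members by edgeR and by DESeq2. Cybb was the 1 member at an unadjusted p under 0.05 by either tool. Over all genes 820 of 11575 were under that limit by edgeR and 281 of 20483 by DESeq2. The exact permutation test of 2 libraries against 2 cannot go below p = 0.3333.

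The other members went both ways with age. Ncf1 went from 206.4 ± 26.9 to 236.5 ± 9.78 CPM, Cyba from 69.8 ± 24.4 to 79.6 ± 8.54 CPM and Hvcn1 from 44.7 ± 11.1 to 55.1 ± 9.05 CPM (SD, n = 2), and their log2 differences were 0.17 ± 0.19, 0.21 ± 0.27 and 0.25 ± 0.27 (SE). Rac2 went from 18.2 ± 1.41 to 11.7 ± 2.94 CPM and Ncf4 from 33.4 ± 17.5 to 25.4 ± 2.80 CPM (SD, n = 2), with log2 differences of -0.65 ± 0.41 and -0.34 ± 0.39 (SE). Their adjusted p lay between 0.818 and 0.923. The signs for Cyba, Hvcn1 and Ncf1 turned with a looser gate, that of Hvcn1 also within DAM-marked nuclei, that of Cyba also without replicate 1 of 3 months and that of Ncf4 without replicate 2 of 3 months. The members' median was 0.19, and that of all genes 0.01. The libraries of the 2 ages did not overlap for 3 members (Cybb, Ncf1 and Rac2), where 36.6% of all genes tested showed no overlap. None of the listed receptors, kinases, Rac regulators, transcription factors, peroxide-removing or glutathione genes was called with age in microglia.

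**Figure D4:**
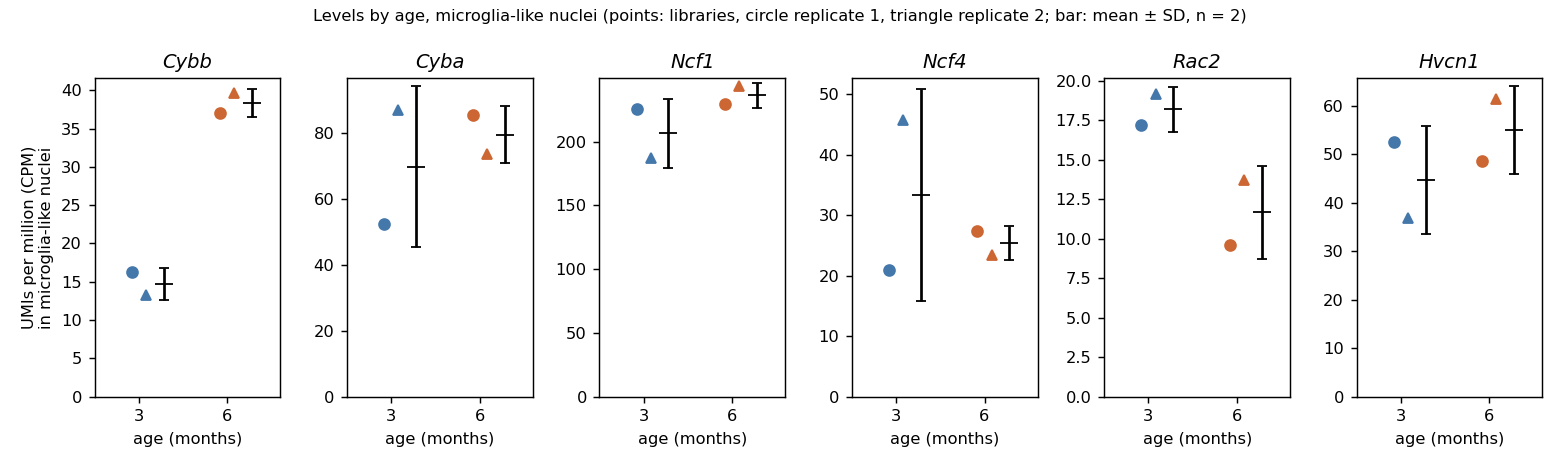
CPM (y axis, from 0 in every panel) of the 6 members in microglia-like nuclei of each library, by age in months (x axis), with the mean and SD of 2 libraries as a bar. Cybb lies at 13.3 and 16.2 CPM at 3 months and at 37.0 and 39.6 CPM at 6 months, and the ranges of Cyba, Ncf4 and Hvcn1 overlap between ages.

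Where the additional Cybb UMIs lay was looked at after these values were seen. In DAM-marked nuclei Cybb was at 62.9 ± 5.49 CPM at 3 months and 91.1 ± 21.1 CPM at 6 months (SD, n = 2), a log2 difference of 0.58 ± 0.39 (SE, edgeR, adjusted p = 0.670). In the other microglia it was at 3.01 ± 0.69 and 17.3 ± 5.41 CPM, 4 UMIs against 34, a log2 difference of 2.50 ± 0.65 (SE, adjusted p = 0.486). There Cybb reached the level asked by the filter on low counts only at 6 months. It thus entered that fit through the age at which it was higher, so the fitted difference is no independent evidence of a rise. In microglia with neither marking 1 UMI was found at 3 months, in replicate 1, and 16 and 9 at 6 months, too few for the gene to enter that fit. The share of microglia that were DAM-marked was 20.1% and 11.6% at 3 months and 23.3% and 23.1% at 6 months. Macrophage markers summed to 19.1 and 7.38 CPM in microglia at 3 months and 21.2 and 22.6 CPM at 6 months, with 1 of 8 at 0. Inhibitory neuron markers summed to 29.6 and 38.4 CPM at 3 months and 65.1 and 62.3 CPM at 6 months, with 0 of 7 at 0, and oligodendrocyte markers to 86.9 and 137.3, then 150.7 and 160.9 CPM, with 0 of 10 at 0. The part of these cells in the Cybb values was not tested.

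The difference between DAM-marked and other microglia was then compared between ages. For Cybb the log2 difference at 6 months minus that at 3 months was -1.94 ± 0.78 (SE, edgeR, adjusted p = 0.506), and for Ncf1 it was 0.78 ± 0.29 (adjusted p = 0.445). None of the 6 members was called, where 0.0637% of 9414 genes were. Cybb and Ncf1 were under 0.05 before adjustment by edgeR, as were 751 of the 9414 genes. By DESeq2 no member was, and 149 of 20469 genes were.

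As shares of single microglia thinned to 1000 UMIs, no difference between ages could pass a test of 2 libraries against 2. The share with a Cybb UMI was 1.69% ± 0.437 at 3 months and 3.15% ± 0.345 at 6 months (SD, n = 2), a difference of 1.46 percentage points that reached the smallest exact permutation p, 0.3333. For Ncf1 the shares were 17.86% ± 3.097 and 21.43% ± 1.062, for Hvcn1 4.19% ± 0.267 and 5.96% ± 0.972, and for Rac2 1.46% ± 0.762 and 0.750% ± 0.225 (SD, n = 2), each with the same smallest exact p. For Cyba they were 6.59% ± 2.47 and 7.70% ± 1.64, and for Ncf4 3.09% ± 1.76 and 2.18% ± 0.780 (SD, n = 2, exact permutation p = 0.6667 for both).

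In excitatory neurons, the cells in which the Cre driver is active, no member was called with age. Cyba was at 0.183 ± 0.0093 CPM at 3 months and 0.446 ± 0.0331 CPM at 6 months (SD, n = 2) on 37 UMIs in all. Its log2 difference was 1.24 ± 0.55 (SE, edgeR, adjusted p = 0.817). Cyba reached the level asked by the filter on low counts only in the 6-month libraries. It thus entered this test through the age at which it was higher, and its unadjusted p cannot be read as evidence of a rise. Cybb, Ncf1 and Hvcn1 differed by 0.24 ± 0.57, -0.20 ± 0.42 and 0.06 ± 0.51 on the log2 scale (SE, adjusted p = 0.961, 0.951 and 0.993), and Ncf4 and Rac2 did not pass the filter on low counts. Of 18596 genes 0.00538% were called. Of the 4 members tested, 0 were called and 1 (Cyba) was under 0.05 before adjustment by edgeR, as were 1132 of the 18596 genes. By DESeq2 0 of 6 members were called and 0 were under 0.05 before adjustment. In the other 5 types no member passed the filter on low counts before the edgeR test by age. DESeq2, which was run without that filter, called 0 members there, of 6 tested in inhibitory neurons, 5 in oligodendrocytes, 2 in astrocytes and 1 each in OPCs and vascular cells.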

How the data were processed

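Nuclei of 4 mouse cortex libraries, 2 at each age, were sequenced with 10x 3′ chemistry. The deposited values are whole UMI counts per gene and nucleus, made by the authors with Cell Ranger (7.0.0 in the matrix headers) against mm10, per the labels and file headers. Whether intronic reads were included, and the strand setting, is not given in the sources used here. Nuclei with over 7000 detected genes or over 1% mitochondrial UMIs were left out, as in the study's methods. Nuclei were typed by marker lists: at least 3 marker UMIs of 2 distinct markers, at 4 times their share in all nuclei (1 times for excitatory neurons). A nucleus that also reached 0.5 of the fold of another list was called mixed, 2103 in all, and left out, and no doublet caller was run. Another 7269 nuclei stayed unnamed.

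UMI counts were summed by library and type and tested over all genes with edgeR 4.0.16 (quasi-likelihood, TMM) in R 4.3.3, with Benjamini-Hochberg adjusted p under 0.05 as the threshold. Comparisons within mice had the library as a block, and the age comparisons had none. The edgeR test gives no SE. The SE printed with its log2 differences is the absolute difference divided by the square root of the F statistic. Where a group held few UMIs, this SE can be smaller than counting error. DESeq2 1.42.0, other gates and filters, and leaving out each library were alternatives. Markers of a type or state stayed in its tests and in the adjustment of p, and were left out only of the counts over all genes. A nucleus was thinned to 1000 UMIs for shares. Intervals of ratios are 95% exact intervals, and these and the limits for a count of 0 (3 UMIs over the group) cover counting error only. Libraries held 59262228 to 65894316 UMIs after the filter. The titles give 1 mouse for each library, so p-values by age rest on 2 animals in each group. Replicates of an age differed beyond counting noise (chi-square per degree of freedom 4.45 at 3 months and 1.94 at 6 months).

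Same-numbered libraries of both ages were paired as a possible batch, which the sample titles do not name. The correlation of the replicate differences was -0.10 in microglia and -0.13 in excitatory neurons. The members, the marker and pathway lists and the tests were chosen with earlier results of these data known. Named were all members, Rac1, Cybc1, Nox4 and Gclc, up to 4 genes of each list with the smallest adjusted p with age or in DAM-marked microglia, and the 3 genes most like each member. The edgeR and DESeq2 fits were tried on simulated data only for age in microglia and for DAM-marked over other microglia. Results of some genes on these lists are not reported here.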

Additional observations from a re-analysis of the deposited data

Results flagged for a closer look

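UMIs of the members were also found outside the types compared, in nuclei that carried markers of several types and in nuclei that met no marker list. In the mixed nuclei Cybb had 61 UMIs, Cyba 144, Ncf1 307, Ncf4 44, Rac2 28 and Hvcn1 68. In the unnamed nuclei Cybb had 55, Cyba 51, Ncf1 91, Ncf4 14, Rac2 5 and Hvcn1 45. Of the 2103 mixed nuclei, 580 met the microglial gate together with another list. These UMIs entered no comparison with the main gate. The looser gate gave a mixed nucleus to the list whose fold it exceeded most, and asked for fewer marker UMIs. Its comparisons therefore took in part of them.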

How the results depend on the processing

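The microglial level of the members and the higher Cybb in DAM-marked nuclei kept direction and call under every alternative tried, except over vascular cells. Of the members, 2 were called in DAM-marked nuclei, but 1 by DESeq2, without the library block, with 3 state markers and with the gate by share of UMIs (chosen after seeing the data), and 1 to 2 with a library left out. In IRM-marked nuclei 1 was called, 0 without the library block and 0 to 1 with a library left out. The causes were not tested.

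Counts over all genes moved more. With age in microglia 2 genes were called, 6 by DESeq2, 104 without the filter, 12 with the stricter gate, 0 with the looser gate, 0 to 858 with a library left out (858 without replicate 2 of 3 months), and, chosen after seeing the data, 63 in DAM-marked nuclei and 1 without them. In excitatory neurons 1 was called, 53 by DESeq2, 26 without the filter and 33 to 1860 with a library left out (1860 without replicate 2 of 3 months). Between DAM-marked and other microglia 674 were called, 278 by DESeq2, 224 without the block, 1084 by share of UMIs and 366 to 583 with a library left out. For IRM it was 172, 102 without the block, 387 by share of UMIs and 103 to 198 with a library left out. For the change of the DAM difference with age it was 6, 0 by DESeq2, 80 without the filter, 46 with the stricter and 0 with the looser gate, 48 without the filter on nuclei and 15 to 72 with a library left out.

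With the replicate number as a block 0 genes were called with age in microglia and 59 in excitatory neurons. Cybb stood at 1.34 (edgeR, adjusted p = 0.692), and no call of a member changed. Crossed pairing, added after seeing the data, called 3 and 49.

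Several small log2 differences turned sign, none of them called before or after. By age in microglia Hvcn1 went to -0.031 with the looser gate and -0.14 in DAM-marked nuclei, Ncf1 to -0.12 and Cyba to -0.064 with the looser gate. With a library left out Cyba ran from -0.12 to 0.55 and Ncf4 from -0.83 to 0.23. In excitatory neurons Ncf1 went to 0.055 with the stricter and 0.34 with the looser gate. With a library left out Hvcn1 ran there from -0.15 to 0.30, Ncf1 from -0.51 to 0.050 and Cybb from -0.44 to 0.69. Ncf4 in DAM-marked nuclei went to -0.00091 with the stricter and -0.14 with the looser gate. In IRM-marked nuclei Hvcn1 went to 0.039 with 3 state markers, Ncf1 to -0.13 without the filter, -0.019 with the stricter gate, -0.35 with the looser gate and -0.094 with 3 state markers, and Cyba to 0.034 by DESeq2. With a library left out Ncf1 ran there from -0.091 to 0.27 and Cyba from -0.31 to 0.38.

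The difference by age in the share of nuclei with a Cybb UMI was 1.46 points at 1000 UMIs, 0.601 at 500 and 3.45 unthinned, that for Ncf1 3.57 at 1000 and 0.694 at 500, and that for Hvcn1 1.77 at 1000, 0.205 at 500 and 2.59 unthinned. With 2 mice at each age and 129 Cybb UMIs, depth and animals limit the age comparison.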
